A study of Danio rerio with 114 samples.

Results

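Activation of wild-type zebrafish eggs by water alone, without sperm, was followed in polyA+ RNA over the first 10 minutes. The comparison rests on 6 of the 114 libraries of the series: unactivated eggs (UNA) of 3 wild-type females and activated eggs (ACT) of the same 3 females. Both groups were taken by pressing eggs from an anaesthetised female of the TLAB strain. UNA eggs were homogenised at once, and ACT eggs stood for 10 minutes in fish water before homogenisation, so neither group met sperm. Each library pools between 35 and 60 eggs that looked of good quality, and the number of a library names its female. The same contrast in ski7-/- females (3 UNA and 3 ACT libraries) served as a check in other animals. These fish carry a net deletion in the exon of the hbs1l locus that only ski7 uses, and Ski7 links the cytoplasmic exosome to the SKI complex. Fertilized eggs (FER) had been laid by the same females and were collected 10 minutes after fertilization. They were not pressed out, so FER and ACT differ in collection as well as in sperm.

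Egg activation is the switch that ends the arrest of the mature egg. A rise of free calcium passes through the egg, cortical granules empty their content, the egg coat lifts, and meiosis resumes. The egg does not transcribe at this time, so that its RNA is altered by degradation, by deadenylation and by lengthening of polyA tails of stored mRNAs in the cytoplasm. A library made by polyA selection counts the transcripts that its selection captures, and a change in amount and a change in tail cannot be told apart in it. A change that all polyA+ transcripts share is removed by scaling and cannot be seen either.

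Between 7663437 and 53906844 reads were counted on genes in the 6 wild-type libraries, and between 6592039 and 71948059 in those of ski7-/-. The markers of the oocyte fixed for the check summed to between 9642 and 11187 CPM (read counts scaled to the total counted on genes in the library) in the 6 wild-type libraries, led by cth1 and h1m, while those of sperm reached at most 1.27 CPM. Markers of follicle cells differed by female and little by stage, with 228, 1090 and 837 CPM in UNA and 206, 1096 and 875 CPM in ACT. Most of this sum came from cyp11a1 (64.2, 944 and 580 CPM in UNA) and cyp17a1 (161, 143 and 252 CPM in UNA). The follicle cell markers fshr, lhcgr and cyp19a1 stayed at or below 0.26 CPM in the 6 wild-type libraries. Whether the sum reflects follicle cells or RNA of the egg was not tested. The UNA libraries of 3 females stood apart from the rest, namely wild-type UNA of females 2 and 3 and ski7-/- UNA of female 3. Transcripts of leukocytes summed to 1163, 645 and 4181 CPM there and to between 16.4 and 41 CPM in the other 15 egg libraries, for a list of 41 genes that was chosen after the values were seen. The ACT and FER eggs of the same 3 females lay within that low range. The largest members of the sum were apoeb (533, 230 and 1532 CPM in the 3 libraries) and grna (207, 109 and 1284 CPM). Blood markers fixed beforehand summed to 29.4, 17.7 and 133 CPM there and to at most 9.18 CPM in the other egg libraries. Not every leukocyte gene followed: coro1a stayed at or below 0.41 CPM, and tyrobp was highest in wild-type UNA 1 (1.46 CPM). Among single markers, spi1, a transcription factor of myeloid cells, had 29.2 and 14.3 CPM in wild-type UNA 2 and 3 and 0.09 CPM in UNA 1. The neutrophil gene lyz had no read in any of these libraries, and mpeg1, a gene of macrophages, stayed at or below 1.29 CPM in each wild-type library. The epithelial gene krt4 followed the same libraries, with 6.54 and 3.39 CPM in wild-type UNA 2 and 3 and no read in UNA 1. In bulk RNA, fewer cells of a type and less RNA per cell cannot be told apart.

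**Figure D1:**
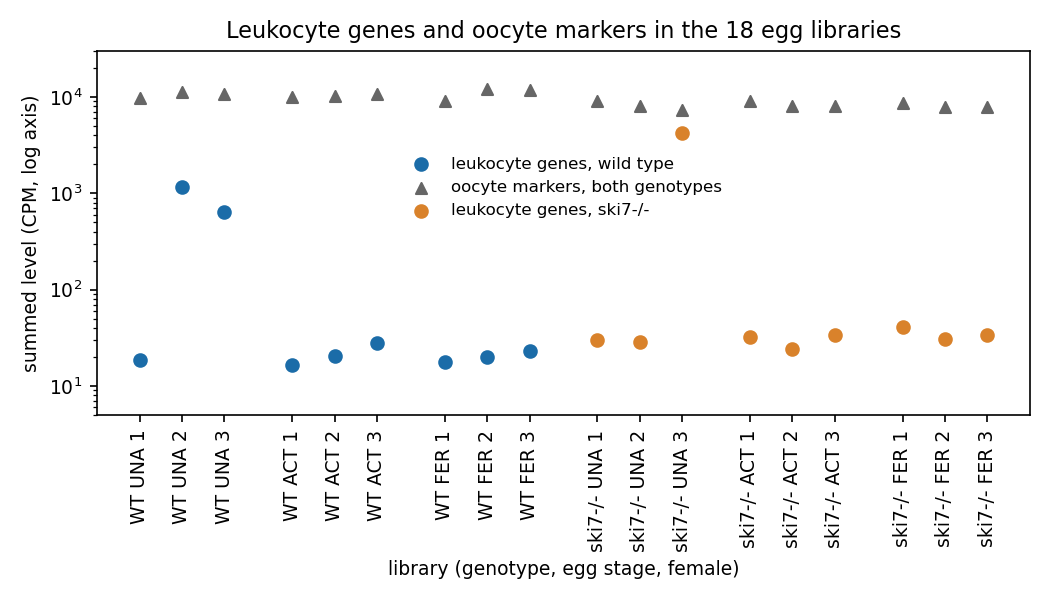
Summed level (CPM, log axis) of 41 leukocyte genes (circles) and of the oocyte markers (triangles) in each of the 18 egg libraries, named by genotype, stage and female. The 3 UNA libraries with leukocyte transcripts lie between 645 and 4181 CPM for leukocyte genes, and the other 15 between 16.4 and 41 CPM.

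To find which transcripts differed after activation, all 18 egg libraries were fitted together with the female as a block, and 7224 genes passed the filter of 10 CPM in at least 3 libraries. In wild type 15 genes were up-regulated and 39 were down-regulated in ACT against UNA (edgeR quasi-likelihood test, two-sided, adjusted p under 0.05). These are 0.748% of the genes tested, 0.208% upwards and 0.54% downwards. The calls depended on 76 genes that reached 10 CPM in none but the 3 UNA libraries with leukocyte transcripts. Over the 7148 genes left without them, no gene passed (smallest edgeR adjusted p = 0.134). The adjusted p of single genes given below, rises and falls alike, carry this limit. The rises were small, between 1.28-fold and 1.73-fold. Of the other genes, most stayed close to their level: 95.4% of all genes tested had a log2 fold change under 0.5 in size, and the median was -0.02 with a median standard error of 0.11. At an unadjusted p under 0.05 there were 871 genes, 520 of them higher and 351 lower in ACT. The directions are described in turn.

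The up-regulated genes were, from the largest fold change to the smallest, a gene with a provisional symbol (ENSDARG00000086626), pds5a, papolg, sox11, pak4, mepce, trrap, clasp1, pogza, mast3b, kansl3, si:ch211-288g17.3, dvl3, nanos3 and cnot3b. All of them were higher in ACT than in UNA in each of the 3 wild-type females. Over all genes tested, 18.7% were. In 7 of the 15 the 3 ACT libraries lay above all 3 UNA libraries, against 2.77% of genes tested. These shares describe the rises and add no evidence, since the call was made on the same libraries.

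The 15 genes are given in order of known role, a sorting made after the calls, for which no enrichment was tested. Members of the lists on mRNA tails and repression come first. The RNA-binding protein Nanos3 (nanos3, ENSDARG00000068255) represses translation and protects germ cells. It had 34.1, 32.2 and 33.9 CPM in UNA of females 1, 2 and 3 and 46.5, 48.3 and 43.2 CPM in ACT. The 2 groups did not overlap, and ACT was higher by 1.34-fold (log2 fold change 0.42, standard error 0.08, edgeR quasi-likelihood adjusted p = 0.0299). The poly(A) polymerase gamma gene papolg (ENSDARG00000012141), whose product adds polyA tails, had 38.1, 23.3 and 29.8 CPM in UNA and 59, 46.3 and 43.8 CPM in ACT. Its groups did not overlap either, and the log2 fold change was 0.68 (standard error 0.12, edgeR adjusted p = 0.0175). A subunit of the deadenylase complex CCR4-NOT, cnot3b (ENSDARG00000019842), went from 31.8, 27.7 and 23.13 CPM to 43, 39.7 and 27.5 CPM. Each female rose, but ACT of female 3 stayed below UNA of females 1 and 2. The log2 fold change of cnot3b was 0.35 (standard error 0.07, edgeR adjusted p = 0.045), the smallest of the rises.

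Several of the others are known from chromatin and transcription, for which no list of such regulators was counted. The cohesin-associated gene pds5a (ENSDARG00000055022) had 30.8, 15.2 and 18.4 CPM in UNA and 71.6, 29 and 22.6 CPM in ACT. Its rise was uneven, with a log2 ratio within the female of 1.17 in female 1 and 0.29 in female 3. The adaptor of histone acetyltransferases trrap (ENSDARG00000100623) changed from 69.8, 59.5 and 60.8 CPM to 105, 98.5 and 83.1 CPM, with no overlap and a log2 fold change of 0.54 (standard error 0.10, edgeR adjusted p = 0.0299). The transcription factor gene sox11 (ENSDARG00000095743) was even across females. It had 19.1, 17.5 and 18.6 CPM in UNA and 30.9, 29.5 and 28.2 CPM in ACT, with within-female log2 ratios between 0.59 and 0.66. The methyltransferase of the 7SK RNA cap mepce (ENSDARG00000059461), kansl3, a member of a histone acetyltransferase complex, and the zinc finger gene pogza had log2 fold changes of 0.60, 0.47 and 0.52.

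The remaining genes with a known role include kinases. The kinase gene pak4 (ENSDARG00000018110), whose product acts on the actin cytoskeleton, had 28.3, 19.7 and 12.8 CPM in UNA and 40, 36 and 19.1 CPM in ACT (log2 fold change 0.61, standard error 0.12, edgeR adjusted p = 0.0377). Levels of pak4 differed more between females than between stages, and every female rose. The microtubule-binding clasp1, the kinase mast3b and the Wnt signal transducer dvl3 had log2 fold changes of 0.53, 0.48 and 0.47 with edgeR adjusted p of 0.044, 0.0377 and 0.044. The 2 genes without a descriptive symbol, ENSDARG00000086626 and si:ch211-288g17.3, had log2 fold changes of 0.79 and 0.47 and are given although the naming rule leaves such symbols out. Just outside the threshold lay tent4b, the gene of a non-canonical poly(A) polymerase, with 13.1, 9.79 and 10.3 CPM in UNA, 26.3, 15.4 and 15.2 CPM in ACT and an edgeR adjusted p of 0.0521. It was named after its values were seen.

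The ski7-/- females gave a check in animals that the wild-type contrast did not use, although all libraries share the estimate of the spread. All 15 genes had a positive log2 fold change in ski7-/- too, between 0.13 and 0.67, and all 15 were higher in ACT than in UNA in each of the 3 ski7-/- females. Over all genes tested, 18.1% were. By themselves, 2 of the 15 passed the threshold in ski7-/-, namely nanos3 (16.7, 22.8 and 19.2 CPM in UNA, 25.8, 30.8 and 28.9 CPM in ACT, log2 fold change 0.52, edgeR adjusted p = 0.0168) and pak4 (31.2, 28.8 and 64.7 CPM in UNA, 67.8, 38.6 and 96.8 CPM in ACT, log2 fold change 0.67, edgeR adjusted p = 0.0252). Those were all the up-regulated genes of ski7-/- (0.0277% of genes tested), where 26 genes passed in either direction (0.36%). The ACT libraries of ski7-/- lay above all its UNA libraries in 3 of the 15, against 2.84% of genes tested. Another 11 had an unadjusted p under 0.05. The largest difference between the genotypes among the rises was in pds5a, with a log2 fold change of 0.77 in wild type and 0.13 in ski7-/- (edgeR interaction test, unadjusted p = 0.0144, adjusted p = 1). No gene passed the interaction test after adjustment, against 70 at an unadjusted p under 0.05, 5 with edgeR's likelihood-ratio test, 3 with DESeq2 and 0 with limma-voom. The hbs1l locus (ENSDARG00000036778), which holds ski7, had 10.9, 7.07 and 3.35 CPM in wild-type UNA and 12.9, 6.39 and 3.51 CPM in ACT. Its log2 fold change was 0.02 with a standard error of 0.15.

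**Figure D2:**
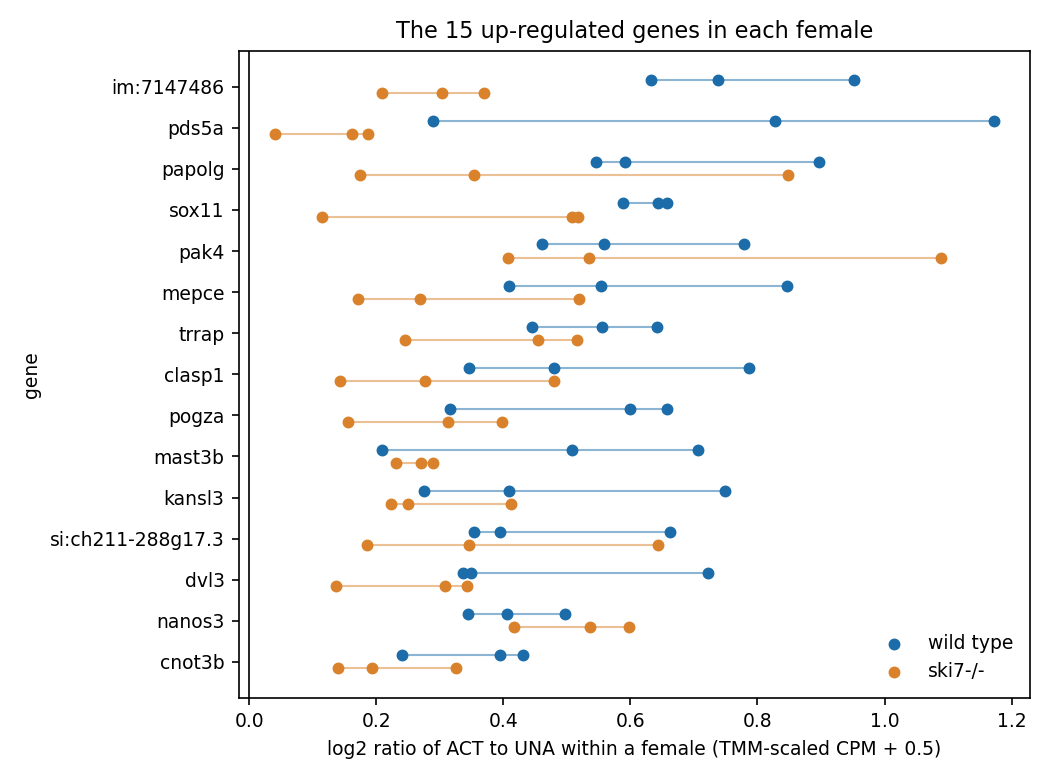
Log2 ratio of ACT to UNA within each female (TMM-scaled CPM plus 0.5) for the 15 genes up-regulated in wild type, with 3 points per genotype joined by their range. All points of both genotypes lie above 0.

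Across genes the contrasts of the 2 genotypes, which share no library, were set side by side. For 5612 genes with at least 10 CPM on average in ACT of both, Pearson's r between their log2 fold changes was 0.73 and Spearman's rho was 0.63. When wild-type female 1 was set against ski7-/- females 1 and 2, which lack the leukocyte transcripts, r was 0.44 and rho was 0.39. Between single females of wild type, r over the same genes was 0.16, 0.20 and 0.59 for females 1 and 2, 1 and 3, and 2 and 3. Females 2 and 3 are those with leukocyte transcripts in UNA. For the same pairs of numbers in ski7-/-, r was 0.31, 0.12 and 0.04. Ratios of single females are not averaged, so their r cannot be set against that of the fitted changes. The correlations are descriptions over genes, which are not independent replicates. The 2 sides of each value rest on different libraries, which are of unequal depth and were read together on 1 scale.

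**Figure D3:**
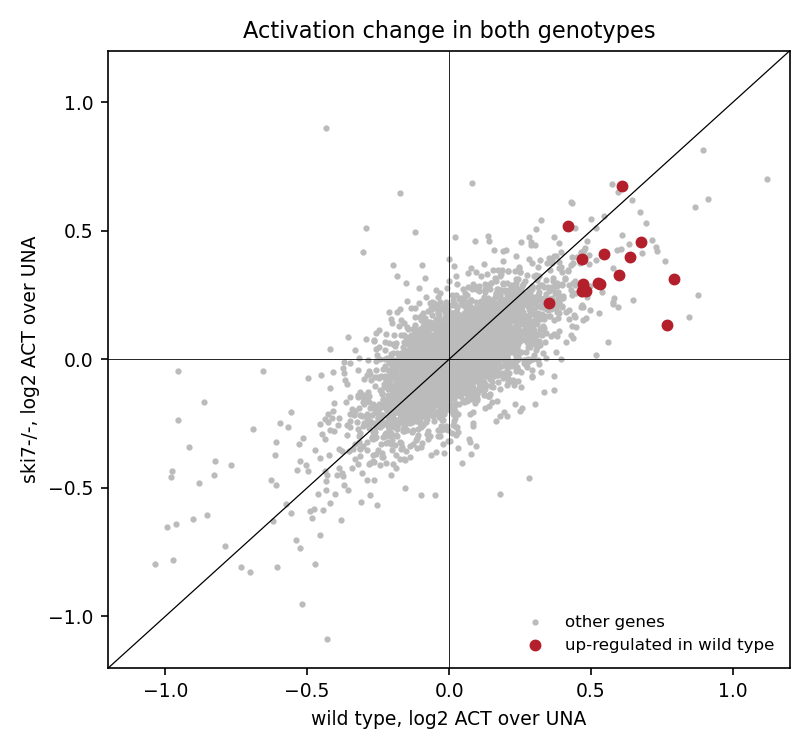
Log2 fold change of ACT against UNA in wild type (x axis) and in ski7-/- (y axis) for genes with at least 10 CPM in ACT of both; 13 of 5612 genes lie outside the axes. The 15 genes up-regulated in wild type (red) all lie to the right of 0 and above 0.

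The rises were followed over the wild-type course, from oocytes (O1 to O4) through eggs to embryos (E1, the 2-cell stage, to E4). In polyA+ RNA 14 of the 15 had a lower mean CPM in UNA than at O4, with pds5a as the exception, but on TMM-scaled CPM this held for 9 of 15. Over all genes tested, 49.7% were higher in UNA than at O4 on plain CPM. The median of the 15 was 98.9 CPM at O4, 29.6 CPM in UNA, 42.3 CPM in ACT, 38.9 CPM in FER and 139 CPM at E1. All 15 were higher at E2 than in UNA (14 on TMM-scaled CPM), and the median then reached 322 CPM. Of all genes tested, 59.9% were higher at E2 than in UNA on plain CPM. The counts against O4 and E2 use the UNA libraries of the call, so they add no evidence. For sox11 the means were 334 ± 23.8 CPM (SD, n = 3) at O4, 18.4 ± 0.82 in UNA, 29.5 ± 1.33 in ACT, 32.3 ± 6.32 in FER, 233 ± 19 at E1 and 551 ± 42.5 at E2. The step from UNA to ACT was small beside the step from ACT to E1 in this gene. The log2 ratio of E1 to UNA had a median of 2.93 over the 15 genes (2.37 on TMM-scaled CPM), against 0.16 over all genes tested. UNA libraries enter this ratio as well as the call. Between O4 and E1, which the call did not use, the polyA+ median of the 15 was 1.15 against 0.26 over all genes. Of all genes tested, 28% lay above that median of the 15.

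After depletion of ribosomal RNA, which needs no polyA tail, the same genes moved less from O4 to E1. Their median log2 ratio of E1 to O4 was 0.49 in these libraries, against 0.25 over all genes tested. Above 0 were 14 of 15, against 68.2% of all genes tested. All 15 were lower in polyA+ than in rRNA-depleted libraries at O4, where 40.3% of all genes tested were higher. Their median log2 ratio of polyA+ to rRNA-depleted was -1.27 at O4 against -0.22 over all genes. At E1 the median was -0.74 against -0.12. Over 3722 genes whose mean level in UNA lay in the range of the 15, apart from genes at 10 CPM in none but the 3 leukocyte libraries, the medians were -0.24 at O4 and -0.40 at E1. For papolg the level at O4 was 126 CPM in polyA+ RNA and 482 CPM after depletion of ribosomal RNA, and at E1 it was 283 and 639 CPM. The series holds no rRNA-depleted libraries of eggs, and each library type was scaled on its own.

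**Figure D4:**
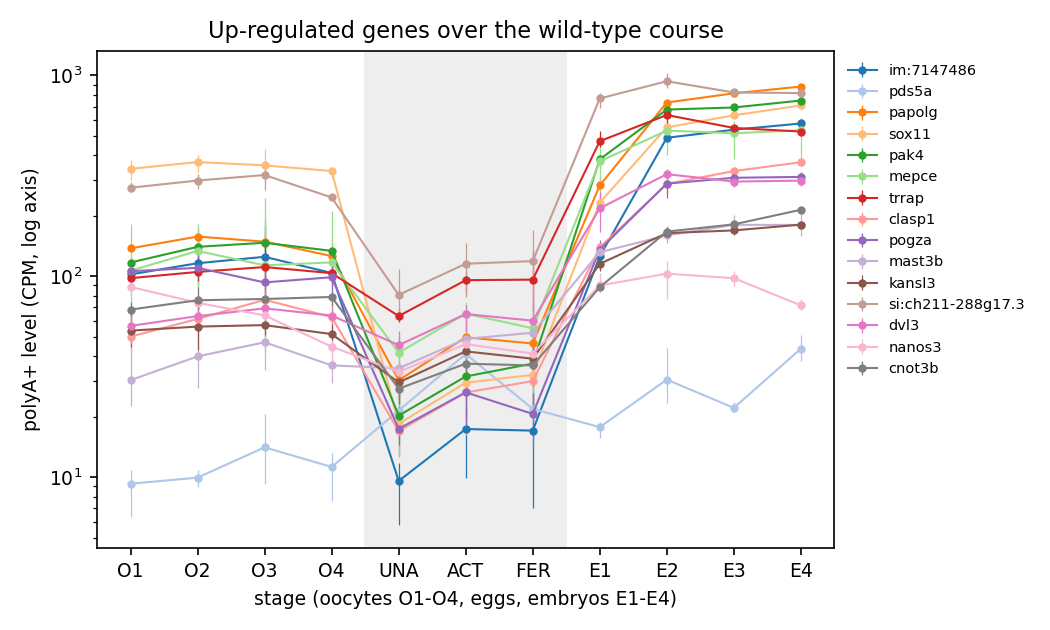
Mean polyA+ level (CPM, log axis) of the 15 genes up-regulated on activation over the wild-type course, with bars from the lowest to the highest of 3 libraries and the eggs shaded. On this scale 14 of 15 are lower in UNA than at O4 (9 of 15 on TMM-scaled CPM), all are higher in ACT than in UNA, and all are higher at E2 than in UNA (14 of 15 on TMM-scaled CPM). Of all genes tested, 49.7% are higher in UNA than at O4 and 59.9% are higher at E2 than in UNA on plain CPM.

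Fertilized eggs were compared with activated eggs of the same females. No gene passed the threshold in FER against ACT (0% of genes tested; 582 at an unadjusted p under 0.05; 7 with edgeR's likelihood-ratio test, 11 with DESeq2 and 0 with limma-voom). The log2 fold changes of FER against ACT had a median of -0.12 over the 15 rises, against 0.02 over all genes tested. The ACT libraries entered the call as well, so a negative median adds no evidence. The 15 values lay between -0.81 and 0.17. At the lower end stood pds5a, with 32.6, 18 and 15 CPM in FER, where ACT had 71.6, 29 and 22.6 CPM. It did not pass (edgeR unadjusted p = 0.000269, adjusted p = 0.324).

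Of the 39 down-regulated genes, 11 were in the leukocyte list, which was chosen on these libraries, so that this count adds no evidence. Only 13 genes of that list were tested, and all 13 had a negative log2 fold change in wild type. Of the 39, 36 reached 10 CPM in none but the 3 UNA libraries with leukocyte transcripts, so that they entered the test through exactly these 3 libraries and had to differ. In all, 76 of the genes tested had this pattern. In UNA of female 1, 30 of the 39 had at most 3 reads and 21 had none. In 18 of the 39 all 3 females were lower in ACT, against 18.5% of genes tested, and in 9 the groups did not overlap, against 1.16%. They are therefore described, and the count is not read as a change of the egg. The lipid carrier gene apoeb (ENSDARG00000040295), high in macrophages and microglia, had 0.37, 533 and 230 CPM in UNA of females 1, 2 and 3 and 0.09, 1.04 and 0.80 CPM in ACT. In female 1 both values were near 0. The fatty acid binding protein gene fabp4a had 1.83, 1056 and 348 CPM in UNA and 0.65, 1.96 and 2.5 CPM in ACT. The granulin gene grna, a lysosomal growth factor of macrophages, had 0.27, 207 and 109 CPM in UNA and at most 0.78 CPM in ACT.

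Several receptors and structural genes had the same form, of which csf1ra and ccr9 are in the leukocyte list. The macrophage growth factor receptor csf1ra had 0.55, 13 and 11.7 CPM in UNA. The chemokine receptor gene ccr9 and the receptor gene cmklr1 had 20 and 29.9 CPM in UNA of female 2. Each of the 3 stayed at or below 0.39 CPM in ACT. The annexin gene anxa2 had 0.27, 67.7 and 43.2 CPM in UNA and at most 0.13 CPM in ACT. The gene cd81, a tetraspanin of many immune cells, had 35.9 and 24 CPM in UNA of females 2 and 3. The membrane genes stoml3 and myadm, the second granulin gene grna.1 and the keratin gene krt18b were also among the down-regulated genes. In krt18b the levels were 0, 15.6 and 21 CPM in UNA and at most 0.07 CPM in ACT. The lipase gene lpl had no read in the 3 ACT libraries and was at least 106-fold lower than the UNA mean, with a floor of 3 reads per library. Fitted fold changes of genes so close to 0 depend on the prior count and are not given. In wild-type oocytes at O4 the polyA+ means were 88.6 CPM for lpl, 47.5 CPM for cd81 and 30.8 CPM for cmklr1. In the leukocyte list, csf1ra had 1.85 CPM and apoeb 22.1 CPM at O4. Which cells the transcripts in UNA came from was not tested.

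In ski7-/- the same transcripts were high in UNA of female 3 alone. There apoeb had 1532 CPM, grna 1284 CPM and csf1ra 53.6 CPM, while females 1 and 2 stayed at or below 0.75 CPM for each. All 24 genes down-regulated in ski7-/- (0.332% of genes tested) were among the 39 of wild type. They were also all among the 36 that reached 10 CPM in none but the 3 UNA libraries with leukocyte transcripts. The overlap therefore follows from the filter and is not read as agreement of the genotypes. The calls of the rises depended on the 76 genes of this pattern through the adjustment. Over the 7148 genes left without the 76, the smallest edgeR adjusted p was 0.134. When genes were filtered on the ACT and FER libraries alone, 0 genes were called in either genotype (edgeR), with 780 at an unadjusted p under 0.05 in wild type. All 15 rises were positive in that fit with a median log2 fold change of 0.53 and an unadjusted p of at most 0.000548, but their edgeR adjusted p lay between 0.133 and 0.15. None of the 15 was called without wild-type female 2 or 3 or without ski7-/- female 3 either, and none in a fit of the 6 wild-type libraries alone, where adjusted p lay between 0.137 and 0.21. In wild-type female 1, whose UNA eggs held few leukocyte transcripts, the within-female log2 ratios of the 15 lay between 0.21 and 1.17. The call was made on this female as well, so these ratios describe the rises and add no evidence.

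Of the down-regulated genes, 3 reached 10 CPM in other libraries as well. They are anxa5b, cyb5r1 and bcar3, and with lpl and tet3 they were named after their values were seen. The annexin gene anxa5b (ENSDARG00000016470) had 38.7, 78.3 and 39.7 CPM in UNA and 35.3, 34.6 and 19.6 CPM in ACT (log2 fold change -0.86, standard error 0.18, edgeR adjusted p = 0.044). The reductase gene cyb5r1 passed the filter through 6 libraries of ski7-/- alone. In wild type cyb5r1 had 6.04, 5.77 and 9.66 CPM in UNA and 1.31, 3.13 and 2.43 CPM in ACT. Its groups did not overlap, female 1 included, and the log2 fold change was -1.77 (standard error 0.35, edgeR adjusted p = 0.0328). In wild-type FER it had 0.98, 6.24 and 2.61 CPM, which is above UNA in female 2. The calls of anxa5b, cyb5r1 and bcar3 were also lost when the 76 genes described above were left out of the adjustment. The methylcytosine dioxygenase gene tet3, which is not one of the 3, reached 10 CPM in none but the 3 UNA libraries with leukocyte transcripts. In wild type it had 1.28, 11.8 and 10.8 CPM in UNA and at most 0.93 CPM in ACT. The adaptor gene bcar3 had 0, 3.09 and 0.95 CPM in UNA and at most 0.11 CPM in ACT, and passed the filter through the 3 egg stages of ski7-/- female 3, at 50.4, 48.8 and 48.5 CPM.

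Gene lists of egg biology were described by their counts and medians. Cell cycle genes that drive the exit from meiosis stayed near their level. None of 39 passed the test in either direction in wild type, with a median log2 fold change of -0.04 against -0.02 over all genes tested. The cyclin gene ccnb1, whose protein is destroyed when meiosis resumes, had 5341 ± 633 CPM (SD, n = 3) in UNA and 5195 ± 530 CPM in ACT (log2 fold change -0.07). The kinase gene aurka had 925 ± 137 and 893 ± 135 CPM, and the activator of the anaphase-promoting complex cdc20 had 2084 ± 182 and 2095 ± 152 CPM. None of the 8 genes of the anaphase-promoting complex, 41 of DNA replication, 27 of calcium signalling or 25 of cortical granules and maternal effect passed. Among these, the endoplasmic reticulum calcium pump atp2a2 had a log2 fold change of 0.24 and the calcium sensor stim1 of 0.16, with edgeR adjusted p of 0.308 for each.

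Lists that act on mRNA held the rises with a tail or repression role. In cytoplasmic polyadenylation, 1 of 21 passed upwards (papolg) and none downwards, where 0.208% of all genes tested passed upwards, and the median log2 fold change was 0.09 against -0.02 over all genes. Of the 21, 14 had a positive log2 fold change and 7 a negative one, with -0.02 in cpeb1 and -0.09 in tent2. The call of papolg is not read as a rise of the cytoplasmic machinery. The regulator of cytoplasmic polyadenylation cpeb1 had 1271 ± 312 CPM (SD, n = 3) in UNA and 1279 ± 276 CPM in ACT. In deadenylation and decapping, 2 of 31 passed upwards (cnot3b and nanos3) and none downwards, with a median of 0.04. None of the 11 genes of the exosome and SKI complex passed. Among 16 germ plasm genes 1 passed (nanos3). Another 5 were higher and 1 lower at an unadjusted p under 0.05, where 520 of all 7224 genes were higher and 351 lower, with log2 fold changes in tdrd7a, ca15b, rgs14a, dnd1 and ddx4 of 0.26, 0.24, 0.29, 0.18 and 0.18. All 5 were higher in ACT in each female of both genotypes, and had edgeR adjusted p between 0.11 and 0.358. Over all genes tested, 18.7% were higher in each female of wild type and 18.1% in each of ski7-/-. The 5 were picked by their p in wild type, so their direction in the wild-type females adds no evidence. The organiser of the germ plasm buc was lower in each of the 6 females, with a log2 fold change of -0.21 in wild type (edgeR adjusted p = 0.255).

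Ribosomal protein genes differed by female. Of 70 tested, 67 had a negative log2 fold change in wild type and 69 in ski7-/-, with medians of -0.20 and -0.25, and none passed the test. Over all 7224 genes tested, 3270 had a positive log2 fold change in wild type and 3526 in ski7-/-. At an unadjusted p under 0.05 (edgeR), 5 of the 70 were lower in wild type and 18 in ski7-/-, and 0 were higher. Of all genes tested, 351 and 290 were lower at that threshold. Within wild-type females 2 and 3 the medians of the log2 ratio were -0.57 and -0.12, with 69 and 66 of 70 below 0. Of all genes tested, 52.3% and 44.85% were below 0 in these 2 females. In female 1, where UNA held few leukocyte transcripts, the median was 0.08 and 16 of 70 were below 0, against 54.8% of all genes tested. In ski7-/- the medians were -0.11, -0.28 and -0.34 in females 1, 2 and 3, of which only female 3 had leukocyte transcripts in UNA. The part of leukocyte RNA in these differences was not tested. Genes of actin and its partners, named after their values were seen, varied. The cytoplasmic actin gene actb2 had 183, 1540 and 922 CPM in UNA and 198, 313 and 178 CPM in ACT, and the thymosin gene tmsb4x, which binds actin monomers, had 11, 315 and 178 CPM in UNA and 14, 8.61 and 14.9 CPM in ACT. Neither passed (edgeR adjusted p of 0.261 and 0.26), and in female 1 their log2 ratios were 0.08 and 0.30. The actin-severing gene cfl1 was lower in ACT in all 6 females, with log2 ratios of -0.36 in wild-type female 1 and -0.26 and -0.34 in ski7-/- females 1 and 2, and did not pass (edgeR adjusted p = 0.101). The profilin gene pfn1 had 43, 180 and 261 CPM in wild-type UNA and 45.1, 49.1 and 199.7 CPM in ACT. In the list of tubulins, actins and keratins, 1 of 15 passed downwards (krt18b), where 0.54% of all genes tested did. At an unadjusted p under 0.05, 7 of the 15 were lower, where 351 of all 7224 genes were. The medians were -0.43 in wild type and -0.45 in ski7-/-. Within females 1, 2 and 3 they were 0.03, -0.56 and -0.39 in wild type and 0.04, -0.11 and -1.09 in ski7-/-. The gene krt18b reached 10 CPM in none but the 3 UNA libraries with leukocyte transcripts, so it had to differ. The 13 protein genes of mitochondrial DNA had a median of -0.05 and the 20 proteasome genes of -0.12, with none passing.

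**Figure D5:**
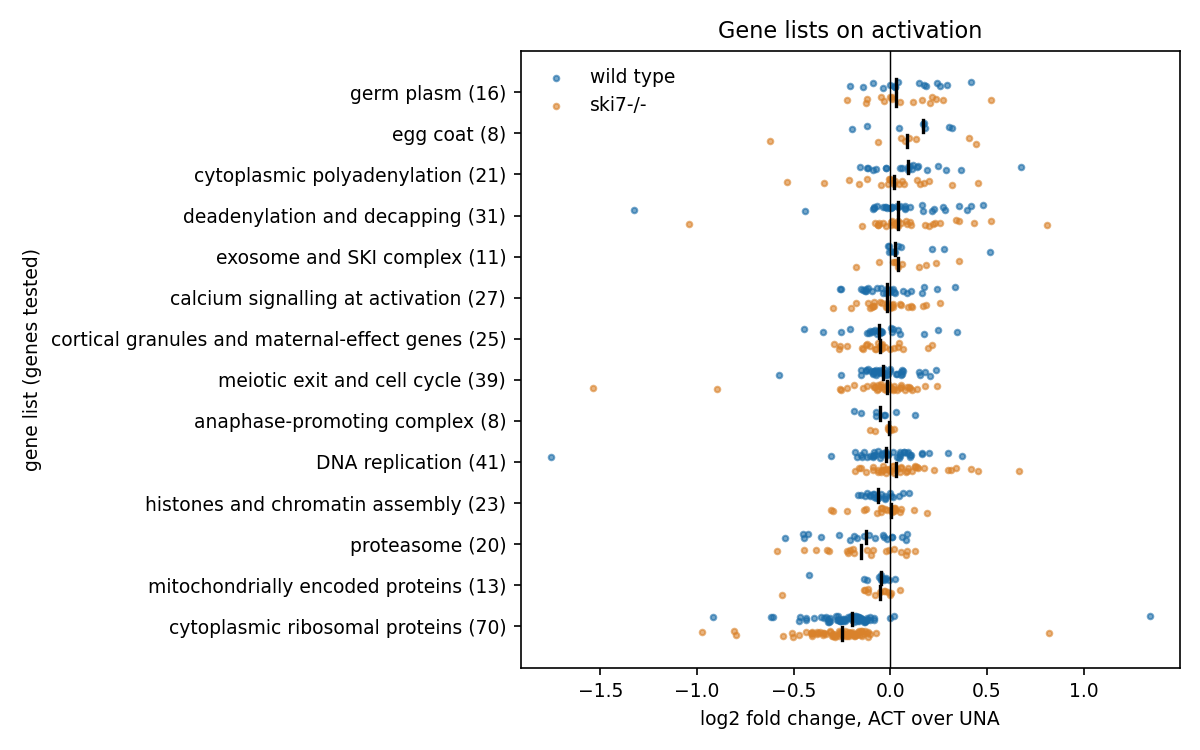
Log2 fold change of ACT against UNA of each gene tested in 14 lists, in wild type (blue) and ski7-/- (orange), with the number of genes tested beside the list and the median of each list as a black bar. Medians lie between -0.25 and 0.17, and of the lists drawn ribosomal protein genes have the lowest median in both genotypes. The list of tubulins, actins and keratins, with lower medians of -0.43 and -0.45, is not drawn.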

How the data were processed

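The authors trimmed reads with bbduk, aligned them to GRCz11 with HISAT2 2.1.0 and counted uniquely mapped reads per gene with HTSeq 0.9.1. The deposited counts are whole numbers without normalization, per sample and not pooled. Of 31466 gene identifiers, 28965 (92.1%) had a symbol in the reference, printed in lower case; symbols drawn from human names may lack the letter of a paralogue. Reads on no feature (10.5% to 18.2% in UNA and ACT libraries) were left out. The members and gene lists were chosen with earlier results of these data known.

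Samples were grouped from their titles. Counts of the 18 polyA egg libraries were fitted with edgeR 4.0.16 in R 4.3.3 (TMM, quasi-likelihood test, female as block), keeping genes that reached 10 CPM in 3 or more libraries, with Benjamini-Hochberg adjustment over all genes and a threshold of 0.05, two-sided. The pairing comes from the methods, where the egg stages of a replicate share a female. Deviations from the group means correlated within the same number at 0.67, 0.69 and 0.91 in wild type and 0.71, 0.78 and 0.53 in ski7-/-, over genes tested. No 2 libraries of a group agreed within sampling noise. Levels are plain CPM; ratios within a female are TMM-scaled with 0.5 CPM added. In simulated data for wild-type UNA against ACT, in which 200 of 7224 genes were changed, the fit called 49% of changes of 0.5 and 92% of changes of 1 on the log2 scale.

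The naming rule took the 12 largest rises and falls with a descriptive symbol and the same sign in all 3 females, list members that passed, and hbs1l. Of 627 list symbols, 604 matched a gene. Alternatives were DESeq2 1.42.0, limma-voom 3.58.1, other scalings, filters, subsets of libraries, thinned counts and the removal of each female; a robust dispersion, a filter on ACT and FER libraries and the removal of 3 females were added after the data were seen. In all, 48 libraries were used: the 18 of eggs, wild-type polyA libraries of oocytes and embryos, and wild-type rRNA-depleted libraries of O4 and E1. Transcript-level TPM tables and the other libraries were not used here.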

Additional observations from a re-analysis of the deposited data

Results flagged for a closer look

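The cyb5r1 gene, which encodes a cytochrome b5 reductase, passed the test in wild type and not in ski7-/-. Its wild-type call was lost when the 76 genes at 10 CPM in none but the 3 leukocyte libraries were left out of the adjustment. The smallest edgeR adjusted p of any gene was then 0.134. In ski7-/- the log2 fold change was 0.33 (standard error 0.31, edgeR adjusted p = 0.855). No wild-type egg library reached 10 CPM (highest 9.66 CPM, UNA of female 3). The gene passed the filter through 6 libraries, all of ski7-/- females 1 and 3. The wild-type ACT libraries held 14, 24 and 131 reads of it. The sign within females was opposite in the 2 genotypes. It was lower in ACT than in UNA in all 3 wild-type females, by log2 ratios of -1.89, -0.87 and -1.82, and higher in all 3 ski7-/- females, by 0.07, 0.43 and 0.41. Wild-type FER had 0.98, 6.24 and 2.61 CPM, so that FER of female 2 lay above its UNA (5.77 CPM). The log2 change in wild type minus that in ski7-/- was -2.10 (standard error 0.46, unadjusted p = 0.000558, edgeR interaction test). After adjustment over 7224 genes the interaction did not pass, with an adjusted p of 1.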

How the results depend on the processing

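Calls were few and depended on the processing. With all 18 libraries, 54 genes were called in wild type and 26 in ski7-/-. Wild type and ski7-/- gave 235 and 93 with a filter at 1 CPM, 808 and 523 without a filter, and 92 and 14 with DESeq2. They gave 11 and 1 with limma-voom, and 0 and 0 from the 6 libraries of a contrast or with the filter on ACT and FER libraries. The likelihood-ratio test called 132 in wild type and the robust dispersion 17 in ski7-/-. Without the block on the female, 0 genes were called in wild type and 0 in ski7-/-, and of the 15 rises 8 kept an unadjusted p under 0.05; the block changed no call of the other contrasts. Without single females the range was 0 to 58 in wild type and 0 to 33 in ski7-/-: removing wild-type female 2 left 1 and 0, wild-type female 3 left 0 and 0, and ski7-/- female 3 left 0 and 0. Without the 3 females with leukocyte transcripts, 1 and 0 were called, which rests on 1 wild-type pair taken to vary like the other females.

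The 15 rises kept their sign under all 20 alternatives, and they were called in number between 0 and 15. When the 76 genes at 10 CPM in none but the 3 leukocyte libraries were left out of the adjustment, none passed (smallest adjusted p = 0.134). For the interaction, 12, 5 and 3 genes were called without a filter, by the likelihood-ratio test and by DESeq2, 0 to 2 without single females and 1 without the 3 females; for FER against ACT the numbers were 4, 7 and 11, and 0 to 4 without single females. The hbs1l log2 fold change of 0.02 turned to -0.12 with thinned counts and ranged from -0.069 (without wild-type female 1) to 0.14 (without wild-type female 2) when single females were left out. On TMM-scaled CPM the median log2 ratio of E1 to UNA of the rises was 2.37 in place of 2.93. The fit recovered 49% of simulated log2 changes of 0.5, and smaller changes were not simulated. This share may not carry over to the real libraries, where the calls depended on the 76 genes. It therefore sets no limit of detection here: called rises reached down to a log2 fold change of 0.35 (cnot3b), and other small changes can have been missed.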
